A study of Mus musculus with 6 samples.

Results

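The mesothelial marker genes considered here are *Wt1*, *Upk3b*, *Upk1b*, *Msln*, *Lrrn4*, *Muc16*, *Gpm6a* and *Bnc1*. They were chosen by name, and their values were looked up in the authors' table of 24402 loci from whole mouse lungs. A locus was found for 7 of the 8 genes, and *Muc16* had none under its symbol or its RefSeq synonyms. Of the 7, 6 averaged 1 FPKM or more over the genotypes, and *Msln* did not. FPKM counts the fragments of a gene, scaled to its length and to the library's total. RNA came from lungs of C57BL/6 embryos at 12.5 *dpc*, as 3 wild-type (control) libraries and 3 libraries of littermates with the genotype Yap-flox/flox; Shh-Cre/+, called *Yap* mutants. As labelled, the controls carried neither the floxed alleles nor Cre. In the mutants, Cre is made from the *Shh* locus and removes *Yap* from the lung epithelium, and whether it acted in the mesothelium was not tested. How many embryos made up a library is not given in the sources used here. The table gives 1 pooled value per genotype, so every difference below lacks a replicate check, and neither a spread between libraries nor a depth per library can be given.

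The mesothelium is the layer of flat cells that covers the lung and lines the chest cavity. In the embryo it encloses the lung mesenchyme, supplies it with signals such as FGF9, and is marked by the transcription factor WT1. Some of its cells can lose their epithelial character and enter the tissue beneath. The heart has a covering of the same kind, the epicardium, which also expresses *Wt1* and *Upk3b*. In bulk RNA, fewer cells of a type and less RNA per cell cannot be told apart.

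YAP does not bind DNA itself and acts through TEAD factors, whose sites hold the letters GGAATG. RefSeq promoter windows (GRCm38.p6) were at hand for *Upk3b*, *Lrrn4*, *Gpm6a*, *Bnc1* and *Muc16*, 6 windows in all because *Gpm6a* has a pair of start sites. In the 250 bases before the start site, GGAATG on either strand was in 3 of the 6 windows, and in 4153 of the 32851 windows (12.6%) of all genes. These 3 windows are shown because they hold the match, which is in capitals. They lie at chr5:136038246-136038495 (plus strand, *Upk3b*), chr2:132880863-132881112 (minus strand, *Lrrn4*) and chr8:54779184-54779433 (plus strand, *Gpm6a*). Each reads 5′ to 3′ on the strand of its gene.
Upk3b: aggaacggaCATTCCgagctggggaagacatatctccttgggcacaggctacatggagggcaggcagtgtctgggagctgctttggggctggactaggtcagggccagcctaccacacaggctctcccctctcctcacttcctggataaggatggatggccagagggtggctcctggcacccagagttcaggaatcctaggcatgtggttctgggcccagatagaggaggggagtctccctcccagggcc
Lrrn4: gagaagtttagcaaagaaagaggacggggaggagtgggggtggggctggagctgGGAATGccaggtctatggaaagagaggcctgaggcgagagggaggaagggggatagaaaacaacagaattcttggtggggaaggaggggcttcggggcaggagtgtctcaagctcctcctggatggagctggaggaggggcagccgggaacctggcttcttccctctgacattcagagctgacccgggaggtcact
Gpm6a: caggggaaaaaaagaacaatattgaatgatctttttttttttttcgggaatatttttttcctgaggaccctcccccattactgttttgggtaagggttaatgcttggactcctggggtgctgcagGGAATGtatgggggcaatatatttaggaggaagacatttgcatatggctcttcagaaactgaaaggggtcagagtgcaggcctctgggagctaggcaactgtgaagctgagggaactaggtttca
The match began 241 bases before the start site in *Upk3b*, where it was on the reverse strand. It began 196 bases before it in *Lrrn4* and nearer to it in *Gpm6a*, on the forward strand in both. The window of *Bnc1*, with 83.6% G and C, held no match, and neither did those of *Muc16* and of the other start site of *Gpm6a*. A WT1 and EGR motif, GCGTGGG on either strand, was in 0 of the 6 windows and in 4.30% of all windows. A GATA motif, AGATAA, was likewise in 0 of the 6 and in 9.99% of all. None of these motifs contains another. These matches describe letters only and show no binding.

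Of the 6 genes averaging 1 FPKM or more, 5 had a value between 1.24-fold and 1.40-fold higher in *Yap* mutant than in control lungs, and *Upk1b* did not. *Wt1* encodes the zinc finger transcription factor that defines the mesothelium, and its locus in the table lies on chromosome 2 from 105076538 to 105173614 (mm10, the same build as GRCm38). Its value was 10.3 FPKM (control) and 12.9 FPKM (*Yap* mutant), 1.24-fold higher. The bounds of this locus also hold *Wt1os*, an antisense RNA on the minus strand, which the table lists apart under its older symbol, AI314831. That antisense locus was low in both genotypes, at 0.513 FPKM (control) and 0.590 FPKM (*Yap* mutant). The libraries were stranded, but the sources used here do not say whether counting used strand. *Bnc1* encodes basonuclin 1, a zinc finger transcription factor, and its locus lies on chromosome 7 from 81966662 to 81992299. It had 3.44 FPKM (control) and 4.52 FPKM (*Yap* mutant), 1.31-fold higher. Both transcription factors were therefore on the higher side in the mutant value, although *Bnc1* was the lowest of the 6 genes in both genotypes.

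The surface and membrane proteins did not all behave alike. *Upk3b* encodes uroplakin 3b, a membrane protein of the mesothelial surface, and its locus lies on chromosome 5 from 136038407 to 136046229. It had the highest value of the group, with 33.9 FPKM (control) and 42.0 FPKM (*Yap* mutant), 1.24-fold higher. *Upk1b* encodes the tetraspanin uroplakin 1b and lies on the minus strand of chromosome 16, in a locus from 38773180 to 38800358. Its value was 6.19 FPKM (control) and 5.75 FPKM (*Yap* mutant), a ratio of 0.930. It was the only member with a locus whose mutant value was below the control value.

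*Lrrn4*, a gene for a membrane protein with leucine-rich repeats, lies on the minus strand of chromosome 2, within locus bounds from 132846666 to 132880921. It had 7.23 FPKM (control) and 10.1 FPKM (*Yap* mutant), 1.40-fold higher, which was the largest ratio among the 6 genes. The same bounds hold *Crls1*, on the opposite strand, which encodes cardiolipin synthase. The separate value of *Crls1* was 25.2 FPKM (control) and 26.8 FPKM (*Yap* mutant), so this neighbour showed a smaller ratio than *Lrrn4*. *Gpm6a* encodes a membrane glycoprotein of the proteolipid family, best known from neurons, and its locus lies on chromosome 8 from 54779434 to 55060878. It had 4.85 FPKM (control) and 6.54 FPKM (*Yap* mutant), 1.35-fold higher. In the GENCODE annotation *Wdr17* overlaps the 5′ part of that locus on the opposite strand.

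**Figure D1:**
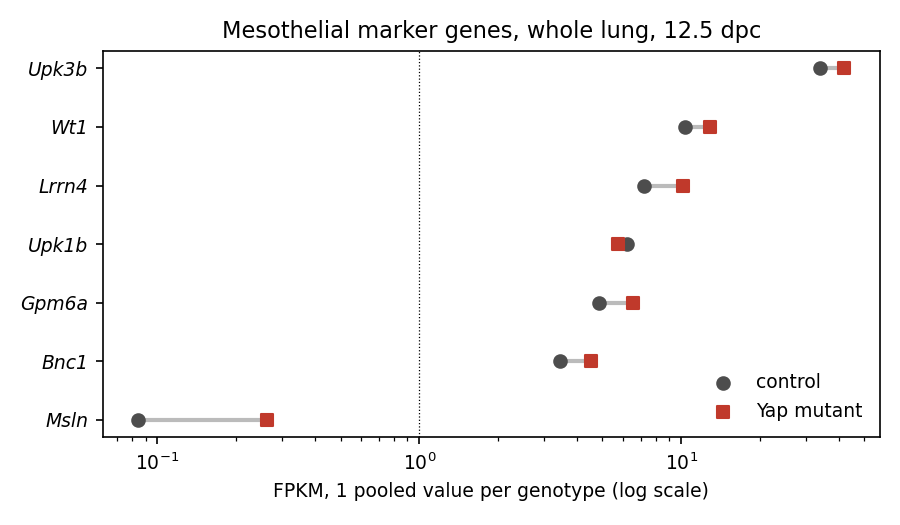
Level of each mesothelial marker gene in FPKM on a log axis, with 1 pooled value for control (circle) and 1 for *Yap* mutant lungs (square), joined by a line; the dotted line is at 1 FPKM. The square lies to the right of the circle for every gene drawn except *Upk1b*, and *Msln* lies below 1 FPKM in both genotypes.

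*Msln* encodes mesothelin, a surface protein of mature mesothelium that binds MUC16. Its locus on chromosome 17, from 25748613 to 25754327, had 0.0843 FPKM (control) and 0.263 FPKM (*Yap* mutant). Both values are so low that their ratio depends on the constant added before taking logarithms. With 0.1 FPKM added, the log2 ratio was 0.98. Of all loci, 67.7% had a control value at least as high as that of *Msln*, beside 29.3% for *Wt1* and 11.1% for *Upk3b*. Mesothelin RNA was thus scarce in both genotypes at this stage, unlike that of *Wt1* and *Upk3b*.

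*Muc16* encodes a large membrane mucin, known as CA125, and no locus carried its name. GENCODE places it on the minus strand of chromosome 9 from 18495455 to 18674530. Within those bounds the table has 3 loci without a symbol, all of which overlap annotated *Muc16* exons, and they were looked up after the gene was found to be missing. The first, from 18495500 to 18532931, had 0.392 FPKM (control) and 0.720 FPKM (*Yap* mutant). The second, from 18637757 to 18639582, had 0.0439 and 0.322 FPKM, and the third, from 18643757 to 18645116, had 0.0613 and 0.279 FPKM. All 3 were under 1 FPKM and higher in the *Yap* mutant value. The table gives no strand for them, so they are not counted as *Muc16*.

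In control lungs the order of the levels was *Upk3b*, *Wt1*, *Lrrn4*, *Upk1b*, *Gpm6a*, *Bnc1* and *Msln*. In *Yap* mutant lungs *Gpm6a* and *Upk1b* changed places, and the rest of the order was the same. Without a spread between libraries it cannot be said which neighbours in this order differ. *Upk3b* made up 51.4% of the summed FPKM of the 7 loci in control and 51.2% in *Yap* mutant lungs, and *Wt1* made up 15.6% and 15.7%. The level of *Upk3b* relative to *Wt1* was 3.29 in control and 3.26 in *Yap* mutant lungs, a change of -0.658%. Among the 10 pairs that can be formed from the 5 genes other than *Upk1b*, the relative level changed by between -11.7% and 6.65%. In the 5 pairs that include *Upk1b*, the size of the change lay between 29.2% and 50.7%. *Upk1b* was set apart after its ratio was seen, and the changes of the pairs only restate the ratios of the single genes. The summed FPKM of the 7 loci was 66.0 in control and 82.0 in *Yap* mutant lungs, 1.24-fold higher.

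These ratios can be set beside those of all other loci. None of the 6 members averaging 1 FPKM or more reached a 1.5-fold difference, taken on the scale log2((*Yap* mutant FPKM + 0.1)/(control FPKM + 0.1)), in either direction (0 of 6). Of the 12716 loci averaging 1 FPKM or more, 4.44% were at least 1.5-fold higher and 3.30% at least 1.5-fold lower in *Yap* mutant lungs. At a fold of 1.2, a bound chosen after the values were seen, 5 of the 6 genes were higher and 0 were lower. By that bound 12.2% of the 12716 loci were higher and 8.78% were lower. Among the 7723 loci whose mean lay within the range of the members, from 3.98 to 37.9 FPKM, 9.08% were higher and 7.02% were lower by the same bound. *Wt1* and *Upk3b* exceeded it only slightly.

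The median log2 ratio of the 6 genes was 0.35, beside -0.01 for all 12716 loci. From the 5th to the 95th percentile, all loci had log2 ratios between -0.42 and 0.53, and all 6 genes lay inside this interval. For loci in the members' range of level the same interval was narrower, from -0.34 to 0.39. *Lrrn4* with a log2 ratio of 0.48 and *Gpm6a* with 0.42 lay above its upper end. *Bnc1* with 0.38 lay just below that end, and *Wt1* and *Upk3b* lay at 0.31. A ratio at least as high as that of *Lrrn4* was found at 739 loci (5.81%), and one as high as that of *Upk3b* at 1315 loci (10.3%). *Upk1b*, with -0.10, lay below the median of all loci, and 74.6% of them had a ratio at least as high.

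**Figure D2:**
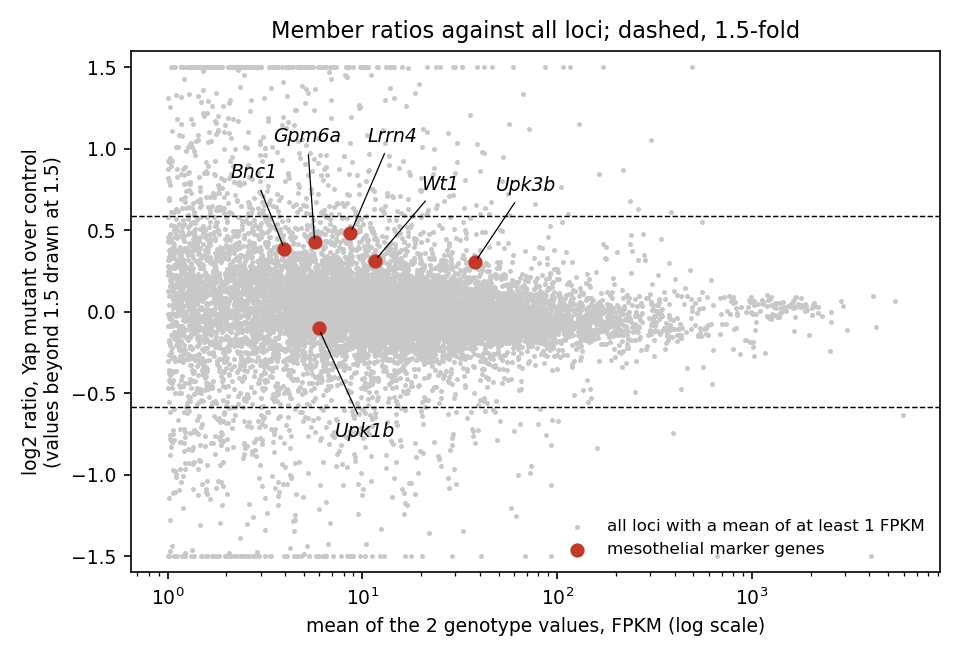
Log2 ratio of *Yap* mutant over control, with 0.1 FPKM added to each value, against the mean FPKM on a log axis, for all loci averaging 1 FPKM or more (grey) and the 6 mesothelial marker genes (red); dashed lines mark 1.5-fold, and ratios beyond 1.5 or -1.5 are drawn at those limits. All 6 genes lie between the dashed lines, and 5 of them lie in the upper part of the grey cloud.

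The relatives of each member were examined from family lists. Of the 6 uroplakin genes, which encode membrane proteins best known from the bladder lining, only *Upk3b* and *Upk1b* reached a mean of 1 FPKM. The others had at most 0.557 FPKM in control (*Upk1a*), and each of them had a lower value in *Yap* mutant lungs. *Upk1a* had 0.557 and 0.196 FPKM, and *Upk3bl*, a neighbour of *Upk3b* on chromosome 5, had 0.237 and 0.207 FPKM. *Upk2* had 0.0985 and 0.0502 FPKM, and *Upk3a* had 0.0843 and 0.0166 FPKM. The higher value of *Upk3b* in the mutants was therefore not shared by *Upk1b*, the only other uroplakin gene averaging 1 FPKM or more. The remaining uroplakin genes were too low for their ratios to be relied on.

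Among the leucine-rich repeat neuronal genes, *Lrrn4* and *Lrrn3* had the highest values. *Lrrn3* had 8.86 FPKM (control) and 9.68 FPKM (*Yap* mutant). *Lrrn1* had 4.30 and 1.48 FPKM, a log2 ratio of -1.47, while *Lrrn2* had 1.48 and 2.83 FPKM, a log2 ratio of 0.89. *Lrrn4cl*, whose product resembles that of *Lrrn4*, had 0.483 and 0.667 FPKM. In the proteolipid family, the value of *Gpm6b* was 18.8 FPKM (control) and 18.7 FPKM (*Yap* mutant). This relative of *Gpm6a* was thus nearly equal in the genotypes. *Bnc2*, the other basonuclin gene, had 2.98 FPKM (control) and 2.56 FPKM (*Yap* mutant), the opposite direction to *Bnc1*. *Egr1*, an early growth response gene whose zinc fingers resemble those of WT1, had 3.45 and 4.61 FPKM, and *Egr2*, *Egr3* and *Egr4* had at most 0.300 FPKM in either genotype.

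Of the mesothelin relatives and membrane mucins, only *Muc1*, a mucin of epithelial surfaces, reached a mean of 1 FPKM. It had 2.04 FPKM (control) and 0.587 FPKM (*Yap* mutant), a log2 ratio of -1.64. *Muc1* passed the level filter only through its control value, so it could only count as lower. *Muc4* had 0.0518 and 0.535 FPKM, and *Muc13*, *Muc20*, *Mslnl* and *Otoa* had at most 0.0708 FPKM in either genotype. *Strc* was listed at 0 in both.

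**Figure D3:**
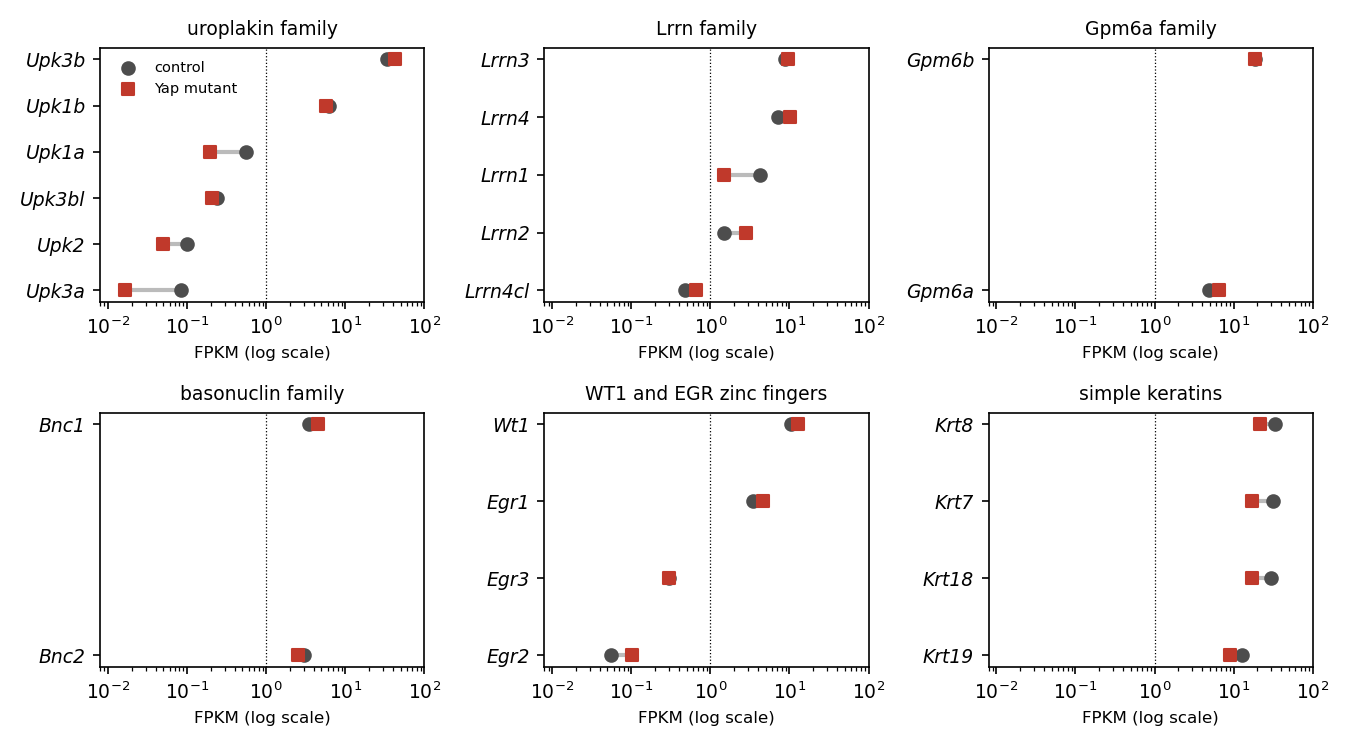
Level in FPKM, on a log axis, in control (circles) and *Yap* mutant lungs (squares), by family. The panels are the uroplakin, *Lrrn*, *Gpm6*, basonuclin, WT1 and EGR, and simple keratin genes. The mesothelin and mucin genes are not drawn, and genes listed at 0 in either genotype are left out. Dotted lines mark 1 FPKM. Among the uroplakin genes only *Upk3b* has its square to the right, and the 4 keratin genes all have theirs to the left.

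A wider list of 22 genes enriched in mesothelium, many of them also expressed by other cells of the lung, did not show the pattern of the 6 genes. All 22 had a locus, and 18 averaged 1 FPKM or more. Of these, 10 had higher and 8 had lower values in *Yap* mutant lungs. The median log2 ratio was 0.02, the values ran from -0.50 to 1.23, and 4 were at least 1.5-fold higher and 0 at least 1.5-fold lower. Of all loci averaging 1 FPKM or more, 48.2% were higher, 4.44% at least 1.5-fold higher and 3.30% at least 1.5-fold lower. The 4 genes of the list at least 1.5-fold higher included transcription factors shared with other tissues. *Gata6* had 35.0 FPKM (control) and 56.0 FPKM (*Yap* mutant), *Gata4* had 10.8 and 20.0 FPKM, and *Tbx18* had 2.65 and 6.36 FPKM. GATA4 and GATA6 also act in the heart, and TBX18 in the epicardium. The fourth gene was *Rarres2*, which encodes chemerin, with 3.22 and 5.19 FPKM.

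Several genes of this wider list were chosen for mention after their values were seen. *Aldh1a2*, which encodes the enzyme that makes retinoic acid in embryonic mesothelium, had 55.2 FPKM (control) and 55.4 FPKM (*Yap* mutant). *Nkain4* had 50.3 and 51.2 FPKM, so *Aldh1a2* and *Nkain4* were at nearly the same value in both genotypes. *Igfbp5*, the most abundant gene of the list, had 335.4 and 413.3 FPKM, 1.23-fold higher. *Rspo1*, a gene for a WNT-enhancing secreted protein, had 19.5 and 13.8 FPKM, a log2 ratio of -0.50. *Krt19*, a keratin of both mesothelium and airway epithelium, had 12.6 and 8.97 FPKM. All 4 simple keratins were lower in the mutant value, with a median log2 ratio of -0.71. *Krt7* had 31.7 and 17.1 FPKM, *Krt8* had 33.5 and 21.6 FPKM, and *Krt18* had 29.8 and 17.1 FPKM.

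Retinoic acid and FGF9 are signals of the mesothelium, and the 17 genes listed for them all averaged 1 FPKM or more. Of these, 7 had higher and 10 lower values in *Yap* mutant lungs. The median log2 ratio was -0.03, and 3 were at least 1.5-fold higher and 4 at least 1.5-fold lower. Of all loci averaging 1 FPKM or more, 48.2% were higher, 4.44% at least 1.5-fold higher and 3.30% at least 1.5-fold lower. *Fgf9*, the ligand, had 3.13 FPKM (control) and 3.60 FPKM (*Yap* mutant), named here after its value was seen. *Fgf10*, a mesenchymal ligand for the lung epithelium, had 10.4 and 26.6 FPKM, the highest log2 ratio of the list at 1.34. The response gene *Etv4* had 13.0 and 21.1 FPKM, while *Etv5* had 86.9 and 36.3 FPKM. Among retinoid genes, the binding protein gene *Crabp2* had 35.7 and 54.1 FPKM, and *Crabp1* had 25.3 and 7.73 FPKM. *Rdh10*, which makes the precursor of retinoic acid, had 25.2 and 15.6 FPKM, and *Stra6*, a retinol transporter gene, had 11.0 and 5.65 FPKM. The genes of these signals therefore lay on both sides, as did all loci.

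Markers of other tissues differed between the genotypes as well. The lung markers *Nkx2-1*, of the epithelium, and *Tbx4*, of the mesenchyme and named after its value was seen, were present in both, at 61.9 and 35.9 FPKM and at 54.3 and 59.2 FPKM. Of 19 epithelial loci 13 were at least 1.5-fold lower and 2 at least 1.5-fold higher in the mutants, and the median log2 ratio was -0.78. Among them *Shh* had 15.6 and 2.31 FPKM, and the Cre allele of the mutants lies at that locus. *Yap1* itself had 76.1 and 65.6 FPKM. Endothelial genes were a quieter comparison, with 9 of 12 loci higher, none (0) at least 1.5-fold different and a median log2 ratio of 0.15. Mesenchymal loci had a median of -0.02 over 17 loci, with 2 at least 1.5-fold higher and 6 at least 1.5-fold lower. Smooth muscle loci had a median of -1.06 over 8 loci, of which 5 were at least 1.5-fold lower. Of all loci averaging 1 FPKM or more, 48.2% were higher, 4.44% at least 1.5-fold higher and 3.30% at least 1.5-fold lower. Relative to the median of the endothelium list, the median log2 ratio of the 6 mesothelial genes was 0.20. Y-linked genes also differed, with at most 0.0163 FPKM in control lungs and 4.61 to 16.5 FPKM in the mutants for the 4 examined. The genotypes thus differed in the sex of their embryos, and the part of sex in the members' values cannot be told apart from that of genotype.

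Heart muscle genes had the largest differences of the lists of other tissues. All 16 had a locus, 13 averaged 1 FPKM or more, and all 13 were at least 1.5-fold higher in the mutants. By the same fold, 4.44% of all loci averaging 1 FPKM or more were higher and 3.30% were lower. The median log2 ratio of the 13 was 3.13. The summed level of the 16 loci was 141.8 FPKM (control) and 1055 FPKM (*Yap* mutant). *Myh7*, *Nppa*, *Ryr2* and *Nkx2-5* had 0.316, 0.581, 0.660 and 0.526 FPKM in control. They passed the level filter only through their mutant values, so they could only count as higher. *Myl7*, an atrial myosin light chain gene, had 39.3 and 305.9 FPKM, and *Myl4*, another such gene, had 21.3 and 210.3 FPKM. *Actc1*, the cardiac actin gene, had 38.0 and 96.1 FPKM, and *Tnnt2*, which encodes cardiac troponin T, had 10.7 and 107.2 FPKM. The epicardium list of 7 genes, which shares *Wt1* and *Upk3b* with the members, had 8 loci between 1.96 and 57.4 FPKM and a median log2 ratio of 0.16. *Tbx18* and *Sema3d* were at least 1.5-fold higher, and *Sema3d* had 13.5 and 27.2 FPKM. *Tcf21*, shared by epicardium and lung mesenchyme, had a main locus with 57.4 and 39.2 FPKM and a smaller one with 3.70 and 1.96 FPKM. The part of heart tissue in the values of *Wt1*, *Upk3b* and the other members was not tested. Without *Wt1* and *Upk3b*, the median log2 ratio of the 4 other members averaging 1 FPKM or more was 0.40. Whether heart tissue also expresses those 4 genes was not examined, so this median does not address its part.

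Liver genes, 8 of whose 13 loci were under 1 FPKM, were higher at 4 of the remaining 5, with summed levels of 14.6 and 61.2 FPKM. *Afp*, which encodes alpha-fetoprotein, had 5.42 and 22.3 FPKM, and *Trf*, which encodes transferrin, had 4.92 and 19.2 FPKM. *Ttr*, a carrier protein gene, had 0.492 and 13.5 FPKM, and *Apoa1*, an apolipoprotein gene, had 1.27 and 3.65 FPKM. *Ttr* passed the level filter only through its mutant value, so it could only count as higher. In contrast, *Alb*, a defining gene of liver cells named after its value was seen, had 1.28 and 1.14 FPKM. Erythroid genes were higher at all 10 loci, 1 of them at least 1.5-fold, with a median log2 ratio of 0.24. For comparison, 6133 (48.2%) of the 12716 loci averaging 1 FPKM or more were higher and 6583 were lower. At least 1.5-fold, 4.44% were higher and 3.30% lower. Neuronal and glial genes, of interest because *Gpm6a* is also a neuronal gene, were lower at 8 of 9 loci, with a median of -0.52. *Gpm6a* was thus higher while *Tubb3*, with 4.46 and 2.52 FPKM, and *Stmn2*, with 5.32 and 2.70 FPKM, were lower. *Phox2a*, among the 9 loci, passed the level filter only through its control value, with 1.39 and 0.760 FPKM. The kidney and gonad genes *Pax2*, *Pax8* and *Nr5a1*, from tissues that also express *Wt1* and named after their values were seen, had at most 0.0826 FPKM in either genotype. Of the 11 loci of that list, 8 were under 1 FPKM. *Cited1*, with 1.65 and 6.10 FPKM, and *Gata4*, with 10.8 and 20.0 FPKM, were at least 1.5-fold higher. *Six2*, with 2.18 and 1.01 FPKM, was at least 1.5-fold lower, and the median log2 ratio of these 3 genes was 0.88. The part of these tissues in the members' values was not tested.

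**Figure D4:**
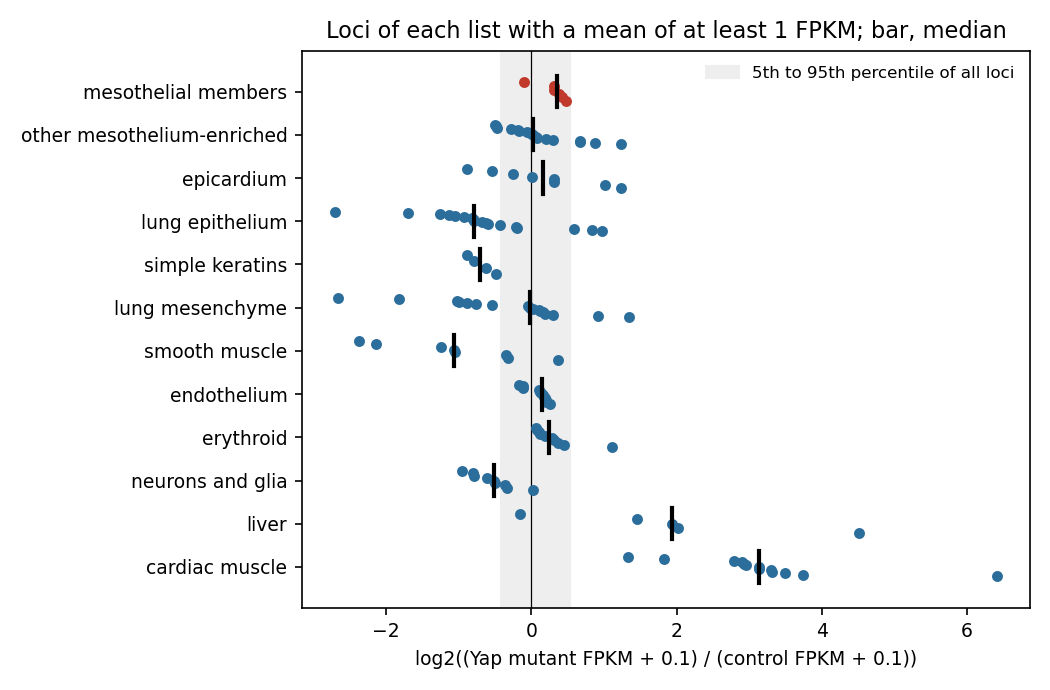
Log2 ratio of *Yap* mutant over control, with 0.1 FPKM added to each value, for the loci of each list that averaged 1 FPKM or more; a point is a locus, the bar is the median of the list, and the grey band is the 5th to 95th percentile of all loci. The 6 mesothelial genes have a median of 0.35, between that of endothelium at 0.15 and those of liver and cardiac muscle at 1.94 and 3.13.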

How the data were processed

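Whole lungs at 12.5 *dpc* were measured by stranded paired-end RNA-Seq in 3 control and 3 *Yap* mutant libraries. Per the labels, TopHat and Cuffdiff were used with mm10, and the methods name the Maverix platform; the sources used here give neither versions nor options. The authors' deposited tables, 2 in number, list 1 FPKM value per genotype and locus, with their own fold changes and p-values, which were not used. FPKM was inferred from the Cuffdiff layout, since the header names no unit. No depth or spread per library could be derived, so the precision of a value is unknown, and no test was run. No column belonged to other samples.

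Ratios were taken here as log2 of FPKM + 0.1, and such a ratio understates the difference of low genes. Shares and medians cover loci averaging 1 FPKM or more. Starts count from 0 in the table and have 1 added here, since 9308 of 20917 loci with a single symbol then start at the RefSeq gene. The members and lists were chosen with earlier results of these data known. All members and family genes are named, and from other lists the genes past 1.5-fold with the highest means, or the 2 highest where none passed, unless marked as chosen after their values were seen. Some genes that this rule names are not reported here. Of other lists, only the genes that a comparison with the members turns on are printed. The calculation was tested on simulated data. Python 3.11.15, numpy 2.4.6, pandas 2.3.3 and matplotlib 3.10.9 were used. Alternatives covered the added constant, the level filter, the fold, centring, the second table and single-symbol loci.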

Additional observations from a re-analysis of the deposited data

How the results depend on the processing

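No paired analysis was possible because the values are pooled by genotype, which also prevents leaving out a replicate. Since no spread is known, a log2 ratio was taken to hold when it moved by at most 0.1, and a count or share when it stayed within 1.5 times. The 6 genes above 1 FPKM kept their direction under every alternative tried, and *Msln* was higher in each. Most alternatives could not have changed a direction, since an added constant keeps the direction of a ratio. The level filter and the fold leave each ratio as it is. Only centring or the second table could have turned one. The ratio of *Msln* was 1.53 with 0.01 FPKM added and 0.22 with 1 FPKM added. Relative to the endothelium list, an alternative added after the data were seen that shifts every log2 ratio by -0.15, *Wt1* and *Upk3b* were at 0.16, *Lrrn4* at 0.33, *Gpm6a* at 0.27, *Bnc1* at 0.23, *Msln* at 0.83 and *Upk1b* at -0.25, with a median of 0.20 over the 6. Without a level filter, 1 member, *Msln*, was at least 1.5-fold higher. The share of all loci that was higher and lower was 2.27% and 1.91% for loci averaging 5 FPKM or more, and 2.15% and 1.28% at a fold of 2. Within the members' range of level the share higher was 2.82%. At folds chosen after the data were seen, 5 members were higher at 1.2, beside 12.2% of loci higher and 8.78% lower, and 3 members at 1.3, beside 7.93% and 5.73%. The list of mesothelin and mucin genes, with a single locus above 1 FPKM, turned from -1.64 to 0.22 without the filter. No value of a member differed in the second table, which holds 2395 loci. How many members are among those loci was not counted, and a member not listed there kept its first value. The second table brought the cardiac median from 3.13 to 2.92. Besides the reversal of the mucin list, the medians of other lists moved by more than 0.1 in 18 cases and by less in 122. Only a median past 1.5-fold could count as reversed. Without the level filter, the uroplakin median also changed sign, from 0.10 to -0.27. The median of the stomach and oesophagus list did too, from -0.15 to 0.04. Results on the members and on the shares of all loci moved past the bounds in 22 cases and held in 60. The ratios of all members with a locus, and their median, moved by more than 0.1 relative to the endothelium list. The cause of these shifts was not tested.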

Other observations

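The list of genes for the transition from epithelium to mesenchyme, a change that mesothelial cells can undergo, had 6 loci higher and 6 lower among 12, with a median log2 ratio of -0.02. Among all loci averaging 1 FPKM or more, 48.2% were higher. *Twist2* and the smaller *Tcf21* locus were at least 1.5-fold lower in *Yap* mutant lungs, and *Twist2* had 20.1 FPKM (control) and 11.3 FPKM (*Yap* mutant). Named after their values were seen, *Zeb1* had 7.91 and 11.1 FPKM and *Cdh2*, which encodes the N-cadherin of mesothelium and mesenchyme, had 31.6 and 39.1 FPKM. Markers of stomach and oesophagus, organs next to the lung with a mesothelium of their own, were low. *Nkx6-1* had 2.88 and 2.94 FPKM and *Barx1* had 2.31 and 1.83 FPKM, while, also named after their values were seen, *Pdx1* had 0.0266 and 0.809 FPKM and *Cdx2* was listed at 0 in control and had 0.410 FPKM in *Yap* mutant lungs.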
